A study of Mus musculus with 24 samples.

Results

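The 10 genes described here, out of 21627 protein-coding ones on chromosomes 1 to 19 and X, were Nupr1, Smarcd3, Adgrg3, Mrc2, Pdgfrb, Serinc2, Slc6a13, Ucp3, Cyp4f16 and Myof. They were chosen by a measured value: fewer KO than WT libraries held a peak of H3K4me3 (trimethylation of lysine 4 of histone H3) within 1000 b of either annotated end of the gene. The values that chose them are therefore the H3K4me3 peak calls of KO and WT, and differences in those calls are given as a description, without a test. KO stands for ILC3s (a class of innate lymphoid cells found in the gut) from Cxxc1flox/flox mice that also carried a Cre, and WT for ILC3s from Cxxc1flox/flox mice. Both genotypes thus carried the floxed Cxxc1 alleles, and the Cre is of a kind that is also active in T cells at some stage. All cells came from the small intestine, at an age labelled 6 to 8 weeks, although the labels' protocols also speak of aged and young mice and of a culture medium. In each genotype 3 subsets were profiled, labelled CCR6+, NKp46+ and DN, with 2 replicates and 2 antibodies, one against CFP1 and one against H3K4me3, giving 12 groups of 2 libraries and 24 libraries in all. The assay was CUT&Tag, in which a transposase tethered to the antibody cuts DNA next to the bound protein or mark. The labels do not say whether replicates came from separate animals, so any spread between them may be technical.

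H3K4me3 is deposited mainly at the starts of active or poised genes. CFP1, the protein encoded by Cxxc1, has a CXXC finger that binds unmethylated CpG dinucleotides, and it is a subunit of the SET1 complexes that write this mark, most of all at CpG-rich promoters. Promoters with few CpGs often gain the mark only in the cell types that use the gene.

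8 of the 10 genes had promoters in the RefSeq table used here (assembly GRCm38.p6), each running from 250 b before to 50 b after a listed start. The promoters that overlapped the missing H3K4me3 peak are printed first, and that of Smarcd3, whose missing peak lay elsewhere, is printed for contrast. Letters run 5′ to 3′ on the gene's strand, and capitals mark the searched motif CG, which reads the same on both strands.
Nupr1 (chr7:126625421-126625720, minus strand): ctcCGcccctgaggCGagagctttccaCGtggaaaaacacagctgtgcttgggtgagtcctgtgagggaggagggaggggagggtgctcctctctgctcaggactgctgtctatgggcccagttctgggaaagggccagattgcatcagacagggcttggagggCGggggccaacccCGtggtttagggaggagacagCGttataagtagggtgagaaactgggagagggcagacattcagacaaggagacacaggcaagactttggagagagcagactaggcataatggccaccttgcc
Adgrg3 (chr8:95017442-95017741, plus strand): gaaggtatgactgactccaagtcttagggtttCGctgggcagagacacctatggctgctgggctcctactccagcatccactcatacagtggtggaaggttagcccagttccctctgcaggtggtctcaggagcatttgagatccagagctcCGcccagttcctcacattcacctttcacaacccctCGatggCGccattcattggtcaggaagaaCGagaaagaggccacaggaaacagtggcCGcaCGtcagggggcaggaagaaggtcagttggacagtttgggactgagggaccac
Ucp3 (chr7:100472741-100473040, plus strand): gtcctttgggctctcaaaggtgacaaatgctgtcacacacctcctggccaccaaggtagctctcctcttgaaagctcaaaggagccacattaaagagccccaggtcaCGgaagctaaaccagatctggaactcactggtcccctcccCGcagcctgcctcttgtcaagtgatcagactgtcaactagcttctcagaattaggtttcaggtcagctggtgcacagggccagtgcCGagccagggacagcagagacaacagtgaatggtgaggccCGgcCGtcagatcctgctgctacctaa
Cyp4f16 (chr17:32536307-32536606, plus strand): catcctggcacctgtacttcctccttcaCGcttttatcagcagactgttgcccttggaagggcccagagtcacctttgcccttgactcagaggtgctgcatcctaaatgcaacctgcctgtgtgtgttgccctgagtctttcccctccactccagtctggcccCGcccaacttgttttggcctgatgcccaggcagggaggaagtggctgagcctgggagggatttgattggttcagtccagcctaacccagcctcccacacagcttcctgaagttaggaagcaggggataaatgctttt
Myof (chr19:38043528-38043827, minus strand): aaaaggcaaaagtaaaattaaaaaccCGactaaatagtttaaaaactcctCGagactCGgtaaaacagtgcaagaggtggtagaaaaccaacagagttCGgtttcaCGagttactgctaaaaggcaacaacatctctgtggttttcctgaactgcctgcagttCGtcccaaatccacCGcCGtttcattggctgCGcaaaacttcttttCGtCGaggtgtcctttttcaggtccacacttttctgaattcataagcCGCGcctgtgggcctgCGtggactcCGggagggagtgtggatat
Smarcd3 (chr5:24601953-24602252, minus strand): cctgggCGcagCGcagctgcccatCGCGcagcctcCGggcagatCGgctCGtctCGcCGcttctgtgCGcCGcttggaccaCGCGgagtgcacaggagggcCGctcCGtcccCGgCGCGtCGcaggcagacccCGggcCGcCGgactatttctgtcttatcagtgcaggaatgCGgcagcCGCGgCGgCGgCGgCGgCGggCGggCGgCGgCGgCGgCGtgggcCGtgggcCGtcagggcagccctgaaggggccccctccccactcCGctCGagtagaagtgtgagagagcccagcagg
The Cyp4f16 promoter held 2 CG matches, and 88.9% of 21044 promoters of protein-coding genes held as many or more. Ucp3 had 5 (72.3% of promoters held as many), Nupr1 had 6 (68.3%), Adgrg3 had 7 (64.9%) and Myof had 15 (47.3%). The Smarcd3 promoter had 40, a number reached by 5.14% of promoters. Across all 21044 promoters the median was 13 CG, with quartiles of 4 and 25. It was 22 for genes with an H3K4me3 peak at their ends in all 12 H3K4me3 libraries and 4 for genes with none in any. Of the promoters at a missing peak, all but that of Myof thus lay below the median of all promoters. The 10 genes all had a peak at their ends in 2 to 10 of the 12 libraries. The median of that class was not computed, so whether these promoters differ from it was not tested. From the most upstream on, the 3 listed promoters of Serinc2 had 16, 28 and 1 CG and the 3 of Slc6a13 had 11, 7 and 2. None of them overlapped the missing peak of its gene.

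**Figure D1:**
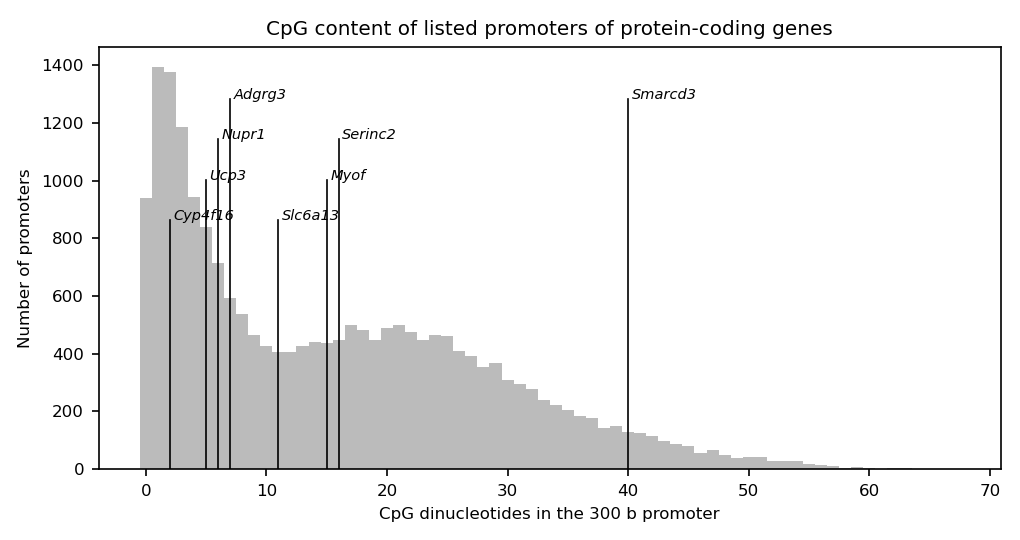
The number of promoters (vertical axis) is plotted by their count of CpG dinucleotides in 300 b (horizontal axis), with lines at the most upstream listed promoter of 8 genes. Cyp4f16, Ucp3, Nupr1 and Adgrg3 stand at 2 to 7 CpGs, below the median of 13, and Smarcd3 stands at 40.

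The H3K4me3 lists held 11794 to 18127 peaks in KO and 12838 to 15397 peaks in WT, and the CFP1 lists 714 to 8881 peaks in KO and 4574 to 7983 peaks in WT. The CFP1 lists of the libraries labelled KO NKp46+ replicate 2 and KO DN replicate 2 held 4891 and 8881 peaks, inside or above the WT range, while the other 4 KO lists held at most 1312, so CFP1 results are given with and without these libraries. Cxxc1 itself had an H3K4me3 peak in 6 of 6 KO and 6 of 6 WT libraries and a CFP1 peak in 0 KO and 2 WT libraries, which does not check the deletion. H3K4me3 peaks were wider in replicate 2, with list medians of 1078 to 1193 b against 791 to 976 b in replicate 1. The lists hold no read totals, so the depth is unknown and a missing peak says only that none was called. Of 12 ILC3 markers, 6 to 10 had an H3K4me3 peak within the gene plus 10 kb in a KO library and 10 to 12 in a WT library. The library labelled KO CCR6+ replicate 1 had no such peak at Il7r, Il22, Ccr6, Ncr1 or Il23r. Ccr6 had one in 1 KO library (CCR6+ replicate 2) and in all 6 WT libraries of every subset, and Ncr1, which encodes NKp46, had one in 2 KO libraries (both NKp46+) and 4 WT libraries. Of 8 T cell markers 4 to 8 had a peak in a KO library and 6 to 8 in a WT library. Of 11 stromal and endothelial markers, 1 to 4 had one in a KO library and 1 to 4 in a WT library. Col1a2, Col3a1, Dcn, Lum, Acta2 and Rgs5 had none in any of the 12. Col1a1 had one in 6 KO and 3 WT libraries, Pdgfra in 4 KO and 1 WT, and Cdh5 in 1 KO and 0 WT. Pecam1 had one in 3 KO and 6 WT libraries and Cspg4 in 0 KO and 2 WT. The ranges were 2 to 4 in KO against 2 to 3 in WT for 9 myeloid markers, 1 to 4 against 2 to 3 for 7 epithelial markers, 1 to 2 against 1 to 2 for 5 B cell markers, and 1 to 3 against 2 to 3 for 6 ILC2 markers. What these differences contribute to the results below was not tested.

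At gene ends, Nupr1, Serinc2 and Adgrg3 had a peak in 0 KO and 6 WT libraries, and Slc6a13 in 0 KO and 5 WT libraries. Mrc2, Cyp4f16, Ucp3 and Pdgfrb had one in 1 KO and 6 WT libraries, and Myof and Smarcd3 in 2 KO and 6 WT libraries. Of all 1877 genes with an H3K4me3 peak at their ends in 2 to 10 of the 12 libraries, 15 (0.799%; 0.0694% of the 21627 genes) had at least 5 fewer KO than WT libraries, and 8 of these were among the 10 genes. In the opposite direction, 20 genes (1.07%) had at least 5 more KO libraries, and over the 1877 genes 453 (24.1%) had fewer KO libraries and 1038 (55.3%) more, with a median difference of 1 library more in KO. Fisher's exact test with Benjamini-Hochberg adjustment called 0 of the 1877 genes (0.0%) at 0.05, and 35 had an unadjusted p under 0.05. Its smallest possible p with 6 against 6 libraries was 0.00217, so adjustment over 1877 genes could not call only a few genes. The 0 calls thus say little about any 1 gene. Other genes inside the threshold of 5 libraries included Arg1 (0 KO, 6 WT), H4c4 (0 KO, 5 WT) and Nmur1, Il23r and Gm52351 (1 KO, 6 WT each). Just outside it, 22 genes had 4 fewer KO libraries. They included Myof, Smarcd3 and, by the strength of their WT peaks, Ifi27 (2 KO, 6 WT), Col18a1 and Fras1 (1 KO, 5 WT each), and Serpinb1c and Ccdc188 (0 KO, 4 WT each).

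Within the 10 genes and 10 kb on each side, H3K4me3 peaks of all libraries merged into 26 regions, and in each gene 1 of them, called the depleted region here, carried the difference. Over the 10 depleted regions, 9 of 60 KO pairs of gene and library had a peak, against 59 of 60 WT pairs. By library this was 1 and 4 genes in KO CCR6+ replicates 1 and 2, 1 and 2 in KO NKp46+, and 0 and 1 in KO DN, against 9 or 10 genes in every WT library. The KO peaks fell mostly in replicate 2 (7 of 9) and in CCR6+ libraries (5 of 9). Without KO NKp46+ replicate 2 and KO DN replicate 2 the KO count was 6 of 40, and without KO CCR6+ replicate 1 it was 8 of 50. The other 16 regions of these windows differed by at most 2 libraries: 8 had fewer KO libraries, 4 more and 4 the same number.

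**Figure D2:**
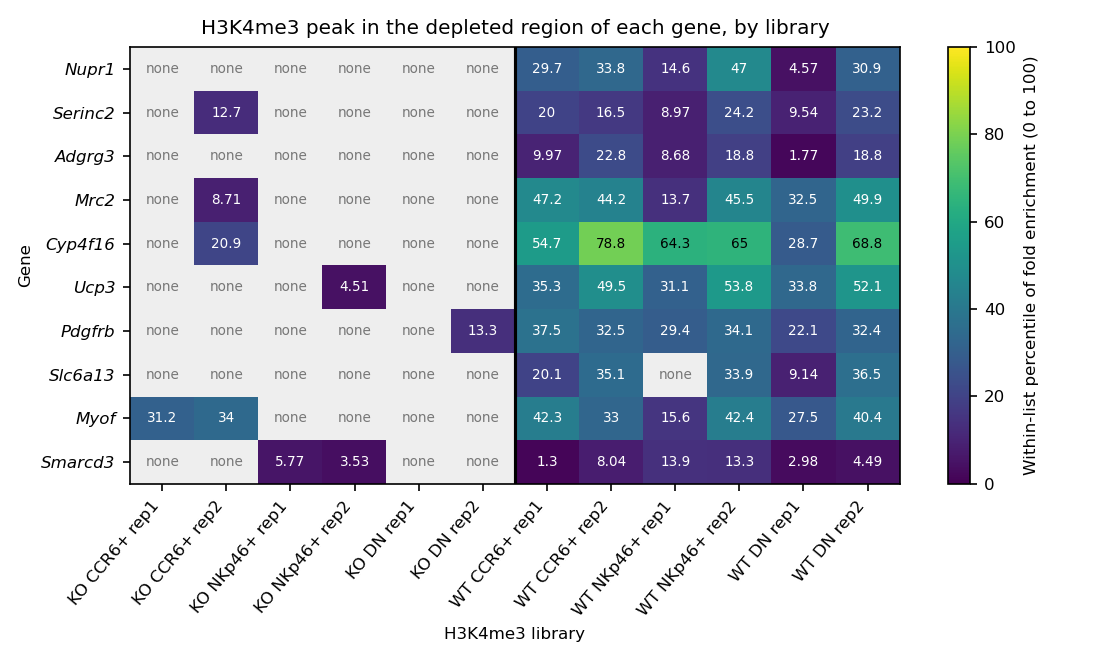
Each cell shows, for 1 gene (row) and 1 H3K4me3 library (column, KO left of the line and WT right), the within-list percentile of fold enrichment of the strongest peak in the depleted region, or none. KO columns hold 9 peaks and WT columns 59.

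The rank of a peak is given as the percentile of its fold enrichment within its own list, where 100 is the strongest peak, and the fold enrichments are the authors' values. The lists differ in length, so ranks describe a peak within its list and show no change between libraries. Peaks in the depleted regions were mostly of low rank: the 9 KO peaks had a median percentile of 12.7 (range 3.53 to 34), and the 59 WT peaks one of 30.9 (1.3 to 78.8). 52 of the 59 WT peaks lay below percentile 50, the middle of their list. The KO peaks were 274 to 1318 b wide, with a median of 608 b, and the WT peaks 278 to 2738 b wide, with a median of 1258 b. Low rank did not mean narrow: 37 of the 59 WT peaks were wider than the median of their list. In WT Serinc2 the DN replicate 1 library had 2 peaks in the region, whose widths are added here. Width differed by replicate number within WT: in 29 of 29 pairs of gene and subset with both replicates, the peak of replicate 2 was the wider one, and in 24 of 29 it had the higher percentile. 5 of the 9 KO peaks were narrower than every WT peak of the same gene, and 4 of the 9 had a lower percentile than every WT peak of that gene. The regions were chosen for few KO calls, and the share over other genes was not computed.

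**Figure D3:**
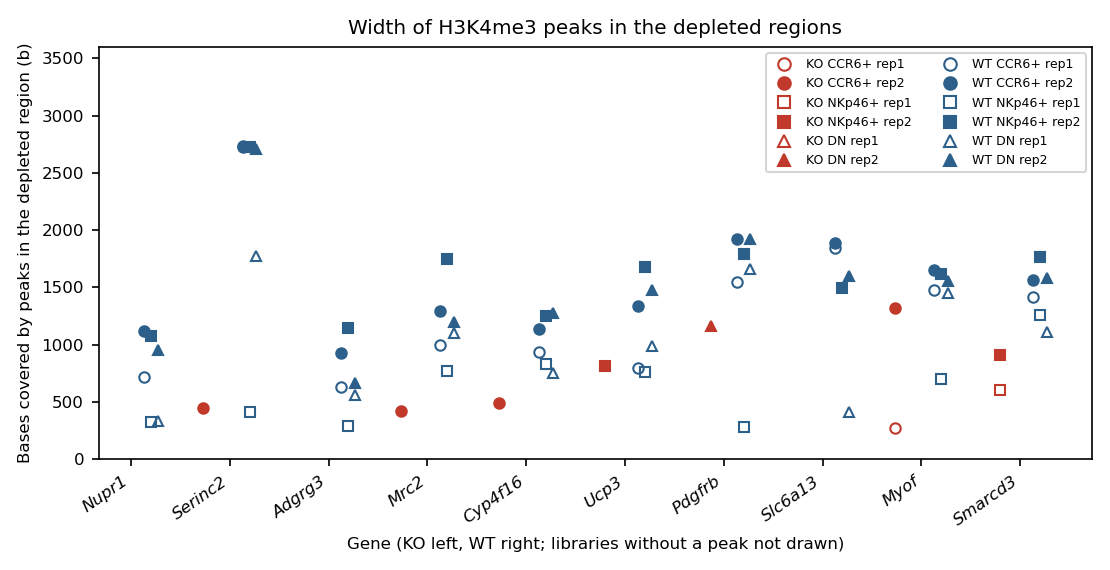
Peak width in the depleted region (vertical axis, b, added where a library had 2 peaks) is plotted for each gene, with KO libraries in red on the left and WT libraries in blue on the right. Marker shape gives the subset, open markers replicate 1 and filled markers replicate 2, and WT widths run from 278 to 2738 b.

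Among regulators in the nucleus, Nupr1 encodes a small stress-induced protein that acts on transcription. Its depleted region (chr7:126624869-126626056, mm10) spanned the listed start, from -586 to 601 b with negative values upstream. No KO library had a peak there or anywhere within 10 kb of the gene. WT libraries placed it at percentiles 29.7 and 33.8 in CCR6+ replicates 1 and 2, 14.6 and 47 in NKp46+, and 4.57 and 30.9 in DN. The WT widths were 717 and 1122 b in CCR6+, 328 and 1075 b in NKp46+, and 335 and 951 b in DN, so that both ran higher in replicate 2 in each subset. No CFP1 library had a peak within 10 kb of Nupr1. Counts for related genes are those at gene ends throughout. Of 6 listed genes of the same stress response that were found in the gene table, Ddit3 and Trib3, which act downstream of the stress factor ATF4, and Sesn2 had H3K4me3 in 6 KO and 6 WT libraries. Atf4 itself had H3K4me3 in 0 KO and 0 WT libraries. Chac1 had it in 3 KO and 0 WT libraries and Asns in 5 KO and 5 WT, and neither of these 2 passed the adjusted test, which the genes in all 12 libraries or in none did not enter.

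Smarcd3 encodes BAF60c, a subunit of the SWI/SNF (BAF) chromatin remodelling complexes. Its depleted region was not at its start but at its 3′ end (chr5:24591261-24593023), 8979 to 10741 b downstream of the listed start and inside the neighbouring gene Chpf2, so the 2 genes cannot be told apart there. KO peaks were called in NKp46+ replicates 1 and 2 alone, at percentiles 5.77 and 3.53 and widths of 608 and 908 b. WT peaks ranked low by fold enrichment in their lists. Their percentiles were 1.3 and 8.04 in CCR6+ replicates 1 and 2, 13.9 and 13.3 in NKp46+, and 2.98 and 4.49 in DN. The WT widths were 1108 to 1763 b, and the −log10 q-values 6.71 to 100.1. The gene record runs from 24592622 to 24624456 and the listed start lies inside it, at 24602002, so the windows at the gene ends miss that start. In the region just upstream of the listed start (-1231 to -80 b), also inside the record, the peak was present in 4 KO and 5 WT libraries. The percentiles there were 34.2 to 42.6 in the 4 KO libraries and 4.63 to 24.3 in the 5 WT libraries. These ranges did not overlap, and the share of such regions over all genes was not computed. These lists differed in length, at 16422 to 18127 peaks in KO and 13773 to 15397 in WT, so the ranks do not show a change, and the 2 KO libraries without a peak there had the shortest KO lists. A region inside the gene (4404 to 5549 b downstream) and the start of Chpf2 had a peak in all 12 libraries. 7 of 8 other BAF subunit genes had H3K4me3 in all 12 libraries and Smarcd2 had none, so none of them entered the H3K4me3 test.

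**Figure D4:**
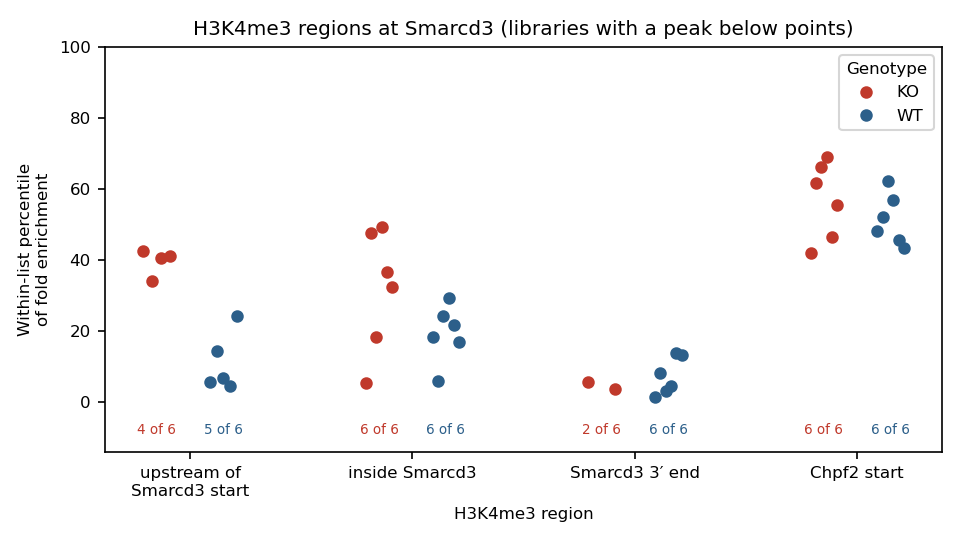
Within-list percentile of fold enrichment (vertical axis, 0 to 100) is plotted for the strongest H3K4me3 peak of each library in the 4 regions at Smarcd3, KO red on the left and WT blue on the right, with the number of libraries that had a peak below. Upstream of the listed start, the 4 KO points (34.2 to 42.6) lie above the 5 WT points (4.63 to 24.3). The lists differ in length, and the share of such regions over all genes was not computed.

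Among cell-surface receptors, Adgrg3 encodes GPR97, an adhesion G-protein-coupled receptor. Its depleted region (chr8:95017445-95018587) covered the listed start, from -247 to 895 b, and had a peak in 0 KO and 6 WT libraries. The WT percentiles were low: 9.97 and 22.8 in CCR6+ replicates 1 and 2, 8.68 and 18.8 in NKp46+, and 1.77 and 18.8 in DN, with widths of 291 to 1143 b. A region inside the gene, 2493 to 3473 b from the start, had a peak in 4 KO and 5 WT libraries. The percentiles were 26.0 to 39.9 in KO (median 31.8) and at most 16.9 in WT (median 15.1). These lists held 16422 to 18127 peaks in KO and 13773 to 15397 in WT, so the ranks do not show a change. The share of such regions over all genes was not computed. At the start no KO library had a called H3K4me3 peak, and a short way into the gene most libraries of both genotypes had one. The KO minus WT difference at the gene ends was -6 libraries. It was -3 with fold enrichment of 5 or more, and -2 with lists cut to the length of the shortest (chosen after seeing the data). A further region inside the neighbouring Adgrg1 had a peak in 2 KO and 0 WT libraries. Of 5 other Adgrg genes, 4 had no H3K4me3 at their ends in any library and Adgrg6 had it in 2 KO and 1 WT libraries.

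Mrc2 encodes Endo180, an endocytic receptor for collagen of the mannose receptor family. The depleted region (chr11:105292241-105293988) began 148 b inside the lower edge of the gene record, and the table lists neither a start nor a strand for it. The only KO peak, in CCR6+ replicate 2, was 425 b wide at percentile 8.71. In WT the percentiles were 47.2 and 44.2 in CCR6+ replicates 1 and 2, 13.7 and 45.5 in NKp46+, and 32.5 and 49.9 in DN, with widths of 770 to 1748 b, all above the KO peak. No CFP1 library had a peak within 10 kb. Its relatives Mrc1 and Pla2r1 had H3K4me3 in 0 KO and 0 WT libraries and in 1 KO and 0 WT libraries, and Ly75 had it in all 12.

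Pdgfrb encodes a receptor tyrosine kinase for platelet-derived growth factors and is best known from pericytes and fibroblasts. Its depleted region lay at the lower edge of the gene record, from -271 to 1734 b, and was shared with the end of the neighbouring Gm52351, so the same peaks put both genes inside the threshold. The KO peak, in DN replicate 2, was 1160 b wide at percentile 13.3. The WT percentiles were 37.5 and 32.5 in CCR6+ replicates 1 and 2, 29.4 and 34.1 in NKp46+, and 22.1 and 32.4 in DN, again all above the 1 KO peak. The WT widths were 1552 to 1922 b except in NKp46+ replicate 1, at 278 b. Of 8 related receptors and ligands, Kit had H3K4me3 in all 12 libraries, Pdgfc in 4 KO and 6 WT libraries, Flt3 in 5 KO and 3 WT, and Pdgfra and Csf1r in none.

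Among membrane carriers, Serinc2 belongs to the serine incorporator family. Its depleted region (chr4:130276495-130279419) lay upstream of all its listed starts, from -3833 to -909 b from the most upstream one, at the upper edge of the gene record. The WT peaks were the widest of all 10 genes, at 2724 and 2738 b in CCR6+ replicates 1 and 2, 414 and 2724 b in NKp46+, and 1777 (2 peaks) and 2709 b in DN. They were of low rank nonetheless, at percentiles of 8.97 to 24.2. KO CCR6+ replicate 2 had a peak of 451 b at percentile 12.7 inside this region, too far from the gene end to be counted there. KO NKp46+ replicate 2 and KO DN replicate 2 instead had a narrow peak directly downstream of the listed start (2 to 513 b), where no WT library had one. Within 1000 b of that start, a window that the edge of the depleted region also reaches, the KO and WT counts differed by 0 libraries. Serinc1 had H3K4me3 in all 12 libraries and Serinc3 in 5 KO and 6 WT.

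Slc6a13 encodes GAT2, a carrier of GABA and taurine. Its depleted region (chr6:121336387-121338381) lay at the 3′ end, 36099 to 38093 b downstream of the listed start, and no library of either genotype had H3K4me3 at that start. It had a peak in 0 KO and 5 WT libraries. In WT the percentiles were 20.1 and 35.1 in CCR6+ replicates 1 and 2, 33.9 in NKp46+ replicate 2 alone, and 9.14 and 36.5 in DN. The WT widths were 1494 to 1890 b except in DN replicate 1, at 412 b. A weaker region inside the gene (25533 to 26525 b) had a peak in 2 KO and 2 WT libraries. The neighbouring carrier gene Slc6a12, whose record lies a short way further downstream, had no H3K4me3 at its own ends in any library.

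Ucp3 encodes an uncoupling protein of the inner mitochondrial membrane. Its depleted region (chr7:100472624-100474330) covered the start, from -367 to 1339 b. The KO peak, in NKp46+ replicate 2, was 813 b wide at percentile 4.51. The WT percentiles were 35.3 and 49.5 in CCR6+ replicates 1 and 2, 31.1 and 53.8 in NKp46+, and 33.8 and 52.1 in DN, all above the KO peak, while WT widths (764 to 1676 b) overlapped it. The other regions around Ucp3 were alike in count: one at -7672 to -5959 b in C2cd3 had a peak in 3 KO and 4 WT libraries, one at 9214 to 10243 b in 4 KO and 3 WT, and that at the start of its paralogue Ucp2 in 6 KO and 6 WT. Ucp1 had none.

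Cyp4f16 encodes a cytochrome P450 of the 4F subfamily, whose members hydroxylate fatty acids and eicosanoids. Its depleted region (chr17:32536416-32537742) covered the start, from -141 to 1185 b, and its WT peaks had the highest median percentile of the 10 genes, 64.7. The KO peak, in CCR6+ replicate 2, was 487 b wide at percentile 20.9. Percentiles in WT were 54.7 and 78.8 in CCR6+ replicates 1 and 2, 64.3 and 65 in NKp46+, and 28.7 and 68.8 in DN, with widths of 754 to 1277 b. All WT peaks lay above the 1 KO peak in both measures, in a region chosen for few KO calls. A region inside the neighbouring Cyp4f17 had a peak in 4 KO and 6 WT libraries. Of 8 other Cyp4f genes, Cyp4f13 had H3K4me3 in all 12 libraries, Cyp4f39 in 5 KO and 2 WT, Cyp4f18 in 3 KO and 1 WT, and 4 in none. Cyp4f17, Cyp4f18 and Cyp4f39 entered the adjusted test and did not pass it. These genes are close copies, and how the authors treated reads that fit several of them is not given in the sources used here.

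Myof encodes myoferlin, a ferlin of calcium-dependent membrane fusion and repair. Its depleted region (chr19:38042264-38043912) covered the start, from -335 to 1313 b. Both KO CCR6+ libraries kept a peak, 274 b wide at percentile 31.2 in replicate 1 and 1318 b wide at percentile 34 in replicate 2, and none of the 4 KO libraries of the other subsets had one. The WT percentiles were 42.3 and 33 in CCR6+ replicates 1 and 2, 15.6 and 42.4 in NKp46+, and 27.5 and 40.4 in DN, so the ranks of KO and WT peaks overlapped. The WT widths were 1453 to 1649 b except in NKp46+ replicate 1, at 703 b. Of the other ferlin genes, Dysf, Otof, Fer1l5 and Fer1l6 had no H3K4me3 at their ends in any library.

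**Figure D5:**
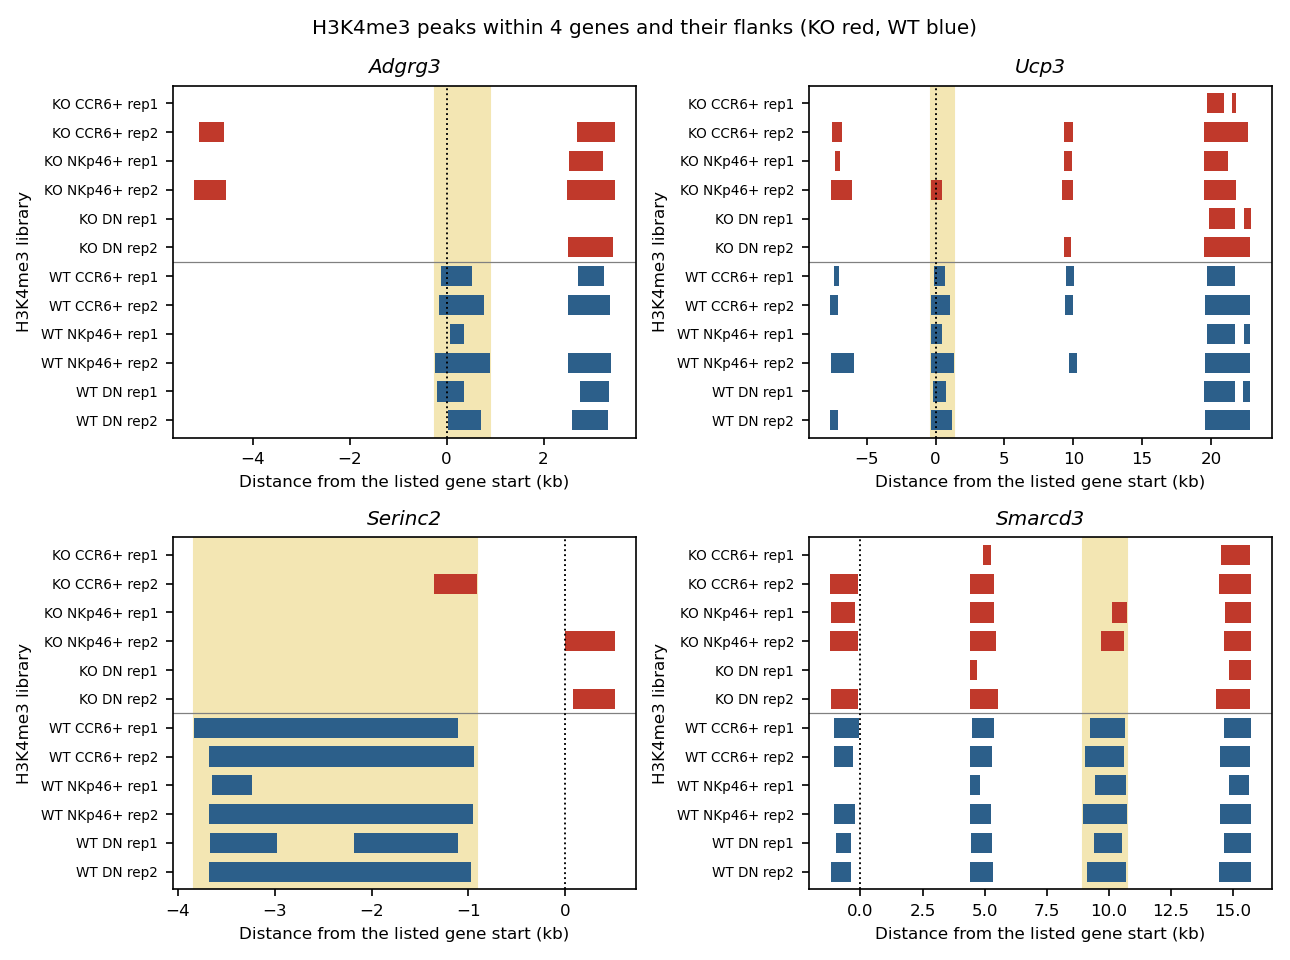
H3K4me3 peaks (bars) of each library are drawn by distance from the most upstream listed start (dotted line, kb) of Adgrg3, Ucp3, Serinc2 and Smarcd3, KO in red above WT in blue, with the depleted region shaded. The shaded region holds 0, 1, 1 and 2 KO libraries and 6 WT libraries each, and the bars elsewhere differ by at most 2 libraries.

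The depleted region thus covered the listed start in 5 of the 8 genes that have one (Nupr1, Adgrg3, Ucp3, Cyp4f16 and Myof) and lay at the 3′ end or upstream in the other 3. Among WT subsets the median percentile over the genes was 33.4 in CCR6+ (20 peaks), 29.4 in NKp46+ (19 peaks) and 28.1 in DN (20 peaks), and the median widths were 1376, 1143 and 1238 b. The medians moved between 14.6 and 38.25 in NKp46+ and between 15.82 and 34.45 in DN when 1 replicate was left out, which is wider than the differences between subsets. Summed over the 10 windows, H3K4me3 peaks covered 8.64 ± 4.58 kb in KO and 21.1 ± 6.64 kb in WT (SD, n = 6 libraries each), a difference of -12.5 kb. The libraries overlapped, at 3.27 to 13.5 kb in KO and 9.89 to 27.1 kb in WT, and the covered length was higher in replicate 2 in every group. Within replicate 1 it was 3.27 to 7.62 kb in KO and 9.89 to 23.4 kb in WT, and within replicate 2 it was 10.4 to 13.5 kb in KO and 23.2 to 27.1 kb in WT. These lengths come from the peak calls that chose the genes, so lower values in KO were largely set by that choice. All KO libraries lay below all WT libraries in 3 genes, Nupr1, Mrc2 and Cyp4f16, and the share over all genes was not computed. Whole lists covered 9.77 to 20.87 Mb in KO and 10.93 to 19.52 Mb in WT.

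CFP1 was not used to choose these genes. None of the 10 had a CFP1 peak at its ends in any of 12 libraries, whereas 34.4% of all 21627 genes had one, so none entered the CFP1 test. That share was 76.3% of the 9250 genes with H3K4me3 in all 12 libraries and 10.6% of the 1877 genes with H3K4me3 in 2 to 10 libraries, the class to which all 10 genes belong. None of the 15 genes with at least 5 fewer KO H3K4me3 libraries had a CFP1 peak at its ends, nor did any of the 20 with at least 5 more. Over the 5738 genes that could be tested, 91.2% had fewer KO than WT CFP1 libraries, with a median difference of -3. Fisher's exact test called 0 of them after adjustment (0.0%) and 431 at an unadjusted p under 0.05 (7.51%), all with fewer KO libraries. Without KO NKp46+ replicate 2 and KO DN replicate 2 it called 747 after adjustment, and without KO DN replicate 2 alone 267. None of the 10 genes had a CFP1 peak at its ends to be tested in either case.

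Within the gene plus 10 kb, 4 of the 10 genes had a CFP1 peak in at least 1 library, against 50.3% of all genes. Serinc2 had one in KO DN replicate 2 and one in WT CCR6+ replicate 2, both over the depleted region, and no other depleted region overlapped a CFP1 peak. Adgrg3 had CFP1 peaks in KO NKp46+ and DN replicate 2 and in WT NKp46+ and DN replicate 2, all over the intragenic region where H3K4me3 was called in both genotypes. Ucp3 had 1 KO library (DN replicate 2) and 2 WT libraries with CFP1, away from its start. Myof had CFP1 in 3 KO and 5 WT libraries, all inside the gene. At 38670 to 40118 b from the Myof start the CFP1 count was 0 KO and 4 WT libraries, and the H3K4me3 region there had a peak in 0 KO and 2 WT libraries, both CCR6+. At 49315 to 50428 b it was 3 KO and 4 WT libraries, and no H3K4me3 was called there. Apart from the Myof peak in KO CCR6+ replicate 2, every KO CFP1 peak near these genes came from the 2 KO libraries whose CFP1 lists were as long as those of WT. Smarcd3 had none. Counted at gene ends, 7 of 8 other BAF subunit genes had CFP1 peaks in fewer KO than WT libraries, none past the adjusted test. Examples were Smarcc1 (0 KO, 6 WT) and Smarca4 (2 KO, 6 WT). Over all 5738 tested genes, 91.2% had fewer KO libraries. These 7 genes had H3K4me3 in all 12 libraries, a class of which 76.3% had CFP1, against 10.6% in the class of Smarcd3.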

How the data were processed

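The submitters' processing notes name mm10 and MACS2 2.2.7.1, Bowtie2 2.3.5.1, ChIPseeker 1.28.3, fastp 0.19.7 and Picard, and the sources used here do not give settings, a control library or duplicate removal. Each library came as 1 deposited peak list, with each peak's position and summit, fold enrichment (a ratio) and −log10 p-value and q-value; the deposited score was not used. The lowest −log10 q per list was 1.3 to 1.42. The number of cells is given for H3K4me3 libraries only, as 100000.

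Genes, listed starts and promoters came from RefSeq tables of GRCm38.p6, the assembly that mm10 also names. An overlap was 1 b or more. A gene was counted in a library if a peak overlapped 1000 b around either end, since the gene table holds no strand; this replaces the planned window at the start. Genes with a peak in 2 to 10 of the 12 libraries of an antibody were tested, 6 KO against 6 WT libraries, with a two-sided Fisher's exact test and Benjamini-Hochberg adjustment (smallest possible p 0.00217). The 3 subsets were pooled. The test was checked on simulated data with many changed genes, which does not show its reach where few change. Peaks that overlapped within a gene plus 10 kb on each side were merged over libraries into regions. Fold enrichments were used only to rank or filter peaks within a list. The 10 genes, the related genes and the marker lists were chosen with earlier results of these data known. Genes named beyond them are those inside the threshold of 5 libraries and the 5 strongest in WT just outside it, except 1 locus that is not reported here. Replicate numbers were not taken to pair the samples, and the block is given with the alternatives. The work was done in Python 3.11.15 with SciPy 1.17.1, pandas 2.3.3, NumPy 2.4.6 and matplotlib 3.10.9.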

Additional observations from a re-analysis of the deposited data

Results flagged for a closer look

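7 of 40 sets of 5 or 6 library values for the 10 genes held 1 library far from the others by the gap to its nearest neighbour. Chance gives about 1 in 20 such sets where values are independent and vary smoothly, which these are not: several KO sets of covered bases are mostly 0, and the Pdgfrb value of WT NKp46+ replicate 1 counts in 2 sets. Among the widths of WT peaks in the depleted regions, Myof and Pdgfrb stood apart in NKp46+ replicate 1, at 703 b and 278 b, and Slc6a13 in DN replicate 1, at 412 b. All 3 were the narrowest of their gene, and NKp46+ replicate 1 had the shortest WT H3K4me3 list. Among bases covered by H3K4me3 within the gene plus 10 kb, KO CCR6+ replicate 2 was far above the other KO libraries at Mrc2 (425 b) and Myof (1318 b), and KO DN replicate 2 at Pdgfrb (1160 b). In these cases most other KO libraries covered 0 b. WT NKp46+ replicate 1 was far below the other WT libraries at Pdgfrb (278 b). The part of list length in these values was not tested.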

How the results depend on the processing

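The number of the 10 genes with at least 5 fewer KO than WT H3K4me3 libraries was 8 with windows at both gene ends. It was 4 with the whole gene plus 1000 b, 4 around the listed start alone (of the 8 genes that have one), 2 with the gene plus 10 kb (chosen after seeing the data), and 5 with either fold enrichment or −log10 q of 5 or more. Wider windows also take in other regions, called in both genotypes or in 1 alone, and at Serinc2 the rest of the depleted region. Cutting each list to the length of the shortest (chosen after seeing the data) put 39 genes inside the threshold, against 15, and 6 of the 10 genes, against 8. Adgrg3 then had a difference of -2, Slc6a13 of -3 and Nupr1 of -4 libraries, KO minus WT. Unadjusted H3K4me3 calls were 35, and 21 with −log10 q of 5 or more. The correlations of deviations between same-numbered samples were -0.03 to 0.136 for H3K4me3 and 0.055 to 0.238 for CFP1. They did not pass 0.1 in every subset, so the numbers were not taken to pair samples, although H3K4me3 peaks were wider in replicate 2; with the replicate block, unadjusted calls were 5 for H3K4me3 and 56 for CFP1, against 431 for CFP1 without it. Without KO NKp46+ and KO DN of replicate 2 (chosen after seeing the data), CFP1 calls were 747 after adjustment, against 0, and 2062 unadjusted. With fold enrichment of 5 or more, 1 of the 10 genes had a CFP1 peak within 10 kb, against 4.

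Leaving out 1 library at a time gave 38 to 137 unadjusted H3K4me3 calls and 0 after adjustment, 4 to 22 genes inside the threshold, 3 to 9 of the 10 genes inside it, 439 to 1278 unadjusted and 0 to 267 adjusted CFP1 calls (267 without KO DN replicate 2), and a covered length of -14.75 to -11.3 kb, KO minus WT. The highest unadjusted H3K4me3 counts, 131 and 137, came without KO CCR6+ replicate 1 or KO DN replicate 1, the shortest lists, and unadjusted CFP1 calls were 927 when KO NKp46+ replicate 2 was dropped and 714 when its WT counterpart was. The low counts inside the threshold (4 to 8 genes, 3 or 4 of the 10) came without a WT library, which lowers them by construction. With 1 WT replicate left out, the median percentile was 32.5 to 33.4 in CCR6+, 14.6 to 38.25 in NKp46+ and 15.82 to 34.45 in DN. The order of the subsets turned: without replicate 1 the medians were 33.4 in CCR6+, 38.25 in NKp46+ and 34.45 in DN. No KO minus WT difference of the 10 genes changed sign under the alternatives run; the KO and WT counts became equal for Smarcd3 with the whole gene plus 1000 b, with the gene plus 10 kb and with fold enrichment of 5 or more, for Ucp3 with the gene plus 10 kb, and for Serinc2 and Slc6a13 around the listed start. Depth is unknown, which limits what a missing peak shows, and most of these peaks ranked low in fold enrichment within their lists.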
